A study of Mus musculus with 24 samples.

Results

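Receptor tyrosine kinases and neurotrophin receptors of neuroblastoma were examined across adrenal glands and tumors of transgenic mice. The 9 genes are Alk, Ret, its co-receptor genes Gfra1, Gfra2 and Gfra3, the neurotrophin receptor genes Ntrk2, Ntrk3 and Ngfr, and Kit. They were selected by gene symbol among the 21833 protein-coding genes of the expression table, and each symbol matched 1 row. The selection used no measured value.

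ALK is a receptor tyrosine kinase of the developing nervous system and the kinase most often mutated in human neuroblastoma. RET is the kinase for ligands of the glial cell line-derived neurotrophic factor (GDNF) family. These ligands first bind a GFRA co-receptor: GDNF mainly binds GFRA1, neurturin GFRA2 and artemin GFRA3. NTRK2 (TrkB) and NTRK3 (TrkC) are the kinases for brain-derived neurotrophic factor and neurotrophin-3, and NGFR (p75NTR) is a receptor of all neurotrophins without a kinase domain. KIT is the receptor of stem cell factor and is known for its role in mast cells, melanocytes and germ cells. Sympathetic neuroblasts and chromaffin cells depend on several of these receptors during development, and neuroblastoma arises in that lineage.

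Poly(A)-enriched RNA-seq of 24 mouse libraries in 4 groups was analysed. AG were adrenal glands of mice that the labels give as CRE negative (n = 3). AGM were adrenal glands without tumor from CRE-positive mice that carried MYCN on 1 allele (n = 5). CRE-positive mice with an IGF2BP1 transgene, heterozygous in 1 case and homozygous in 7, gave the TI neuroblastomas (n = 8). Neuroblastomas of CRE-positive mice with both transgenes are called TIM (n = 8), and the labels do not give their zygosity. IGF2BP1 is an oncofetal RNA-binding protein and MYCN the transcription factor amplified in high-risk neuroblastoma. Both transgenes sat in the Rosa26 locus behind a stop cassette that Cre under the Dbh promoter removed, so expression was directed to noradrenergic cells, and the IGF2BP1 transgene had no 3' untranslated region of its own. The mice had a C57Bl6/N background. AG carried no Cre, so Cre itself also differed between AG and the other 3 groups. The labels place 1 TI and 2 TIM tumors in the adrenal gland and 1 TIM tumor at the spine, and name no site for the others, whereas both control groups were whole glands.

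Values are in FPKM, that is, fragments divided by the length of the gene and by a scaled library size, so levels of different genes can be compared within a library. Leaving aside 126 genes with over 1000 FPKM in some library, none of them among the 9, the libraries held 12334076 to 23683176 reads. With those genes, the corrected reads summed to 17434796 to 17893013 in AG and 12468968 to 21353172 in TI. In AGM they summed to 116740738 to 1170004708, and in TIM to 58530450 to 888626365. What this excess means for contrasts of AGM or TIM with AG or TI was not tested. The transgenes had no rows of their own. The mouse Igf2bp1 row held 0 to 81 reads in any library, and the Mycn row held 194 to 288 reads in AG glands, 169 to 315 in AGM glands, 563 to 6592 in TI tumors and 352 to 1493 in TIM tumors. Libraries are numbered by their place in the table. These numbers do not match the labels, so the sequencing run, zygosity and site of a library are not known here. The 3 AG samples belonged to run 1, AGM to run 2, TIM to runs 2 and 3, and TI to run 1 for 6 of 8 samples. For AGM and TIM against AG, group and run cannot be told apart. In bulk tissue, fewer cells of a type and less RNA per cell cannot be told apart either. Summed adrenal cortex markers were 512 to 541 FPKM in AG, 3072 to 3776 in AGM and at most 7.86 in any tumor. Neuron markers summed to 2.08 to 2.50 FPKM in AG and 2.83 to 4.73 in AGM, but to 90.2 to 457 in TI and 135 to 368 in TIM. Sympathoblast and chromaffin markers summed to 143 to 206 FPKM in AG and 1482 to 2558 in AGM, while TI tumors held 214 to 1844 and TIM tumors 223 to 4807. The part of tissue composition in the gland and tumor differences was not tested.

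**Figure D1:**
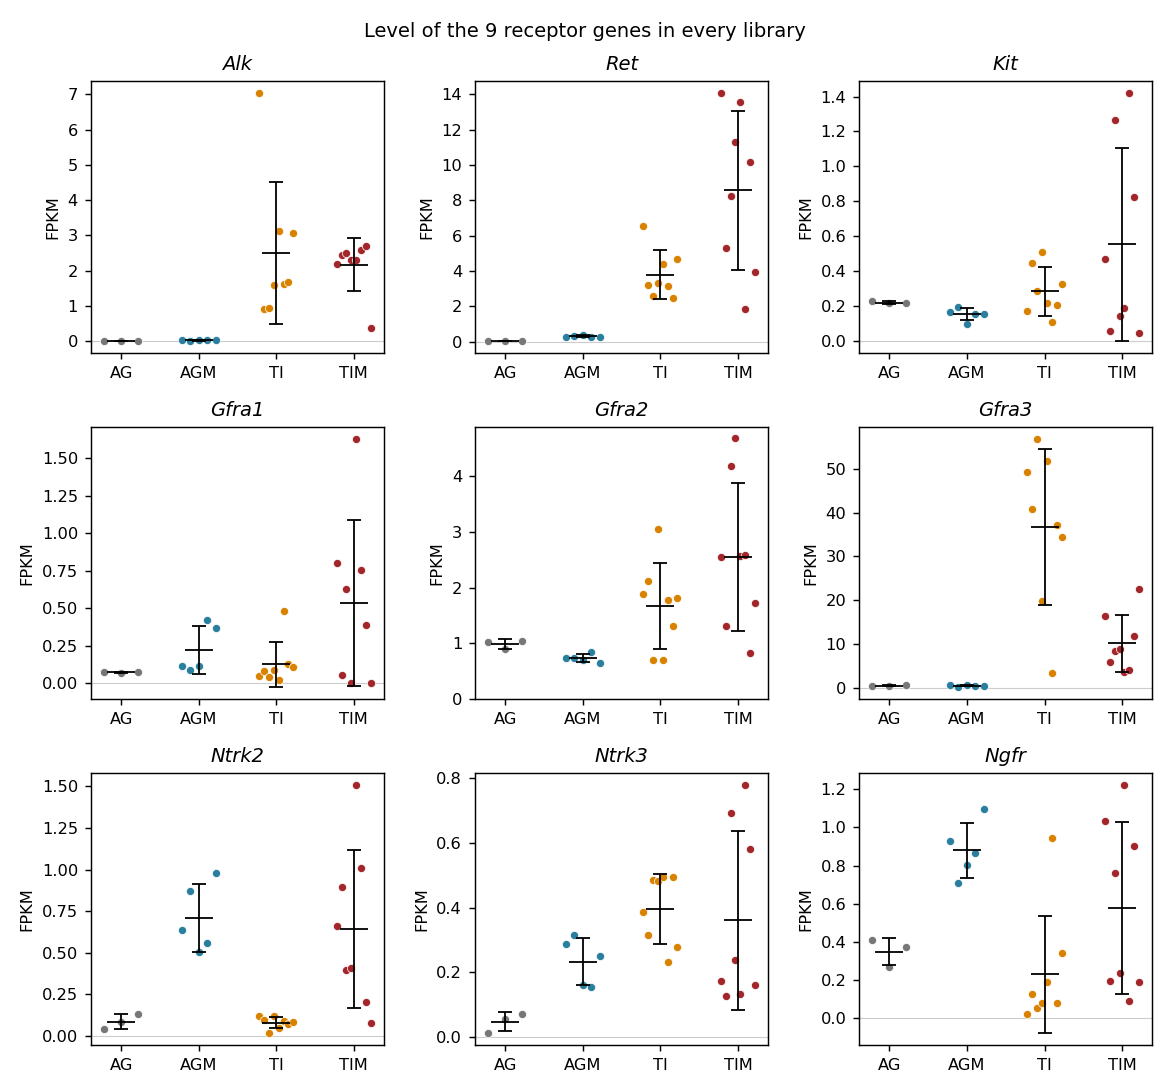
Level of each of the 9 receptor genes in FPKM (vertical axes, linear, each panel with its own range) in the 24 libraries of AG, AGM, TI and TIM (horizontal axes). Points are libraries, the horizontal bar is the group mean and the error bars are 1 SD. Alk, Ret and Gfra3 lie above every gland library in all 16 tumors, whereas Ntrk2 is high in AGM and in most TIM tumors but not in TI.

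The tumors differed from the glands mainly in Alk, Ret and Gfra3. Each of these was higher in all 8 TI and all 8 TIM libraries than in any AG or AGM library. The share of all genes that separated tumors from glands in this way is not reported here, so the separation is a description only. Gfra2 rose in TIM, Ntrk3 rose in both tumor models, and Ntrk2 rose in the groups with the MYCN transgene, AGM and TIM, but not in TI. In TIM vs AG, Gfra2, Ntrk3 and Ntrk2 did not pass the exact permutation test described below (adjusted p 0.0808 for each). Gfra1, Ngfr and Kit did not pass the test in any comparison, although each did under some alternative given below. Differences are given as log2 fold changes of FPKM + 1, which understate the change of low genes, and a gene was called at a false discovery rate (FDR) below 0.05 in limma. Of the 9 genes, 5 (Alk, Ret, Gfra2, Gfra3 and Ngfr) reached 1 FPKM in at least 3 libraries and were tested among 10171 genes. Ngfr did so through exactly 3 libraries (AGM_5, TIM_1 and TIM_5). Gfra1, Ntrk2, Ntrk3 and Kit did not, and for them the fit over all 21833 genes is given together with an exact two-sided permutation test over libraries, adjusted over 5 contrasts.

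In TI vs AG, 3 of the 5 genes above the filter were called, against 52.4% of all 10171 genes, and 1 of the 4 below it, against 33.3% of the 21833 genes. In TIM vs AG, 4 of 5 and 2 of 4 were called, against 51% and 32.9%. All of these were higher in tumors, as were 24.6% (TI) and 22.5% (TIM) of the 10171 genes. Alk, Ret and Gfra3 stayed below 1 FPKM in every gland and passed the filter only through tumors. Their count as higher in tumors is therefore no support for a pattern. In AGM vs AG, 0 of 5 and 1 of 4 were called, against 28.6% and 17.8%. The 0 has an unadjusted limma p below 0.05 for 1 of the 5 genes, Ngfr, and limma-voom called none of the 5 either. In TIM vs TI, 2 of 5 and 1 of 4 were called, against 22.9% and 12.4%, and in TIM vs AGM 4 of 5 and 0 of 4, against 65.3% and 42.5%. Those 4 genes were also without an unadjusted limma p below 0.05 in TIM vs AGM, and limma-voom called 0 of them. The median log2 fold change of the 9 genes was 0.37 in TI vs AG, 0.55 in TIM vs AG and 0.18 in AGM vs AG, beside -0.00206, -0.00486 and -0.00231 over the 10171 genes. The 9 include 4 genes from the fit without a filter, unlike the 10171. For the 5 genes above the filter the medians were 1.64, 1.61 and 0.02.

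**Figure D2:**
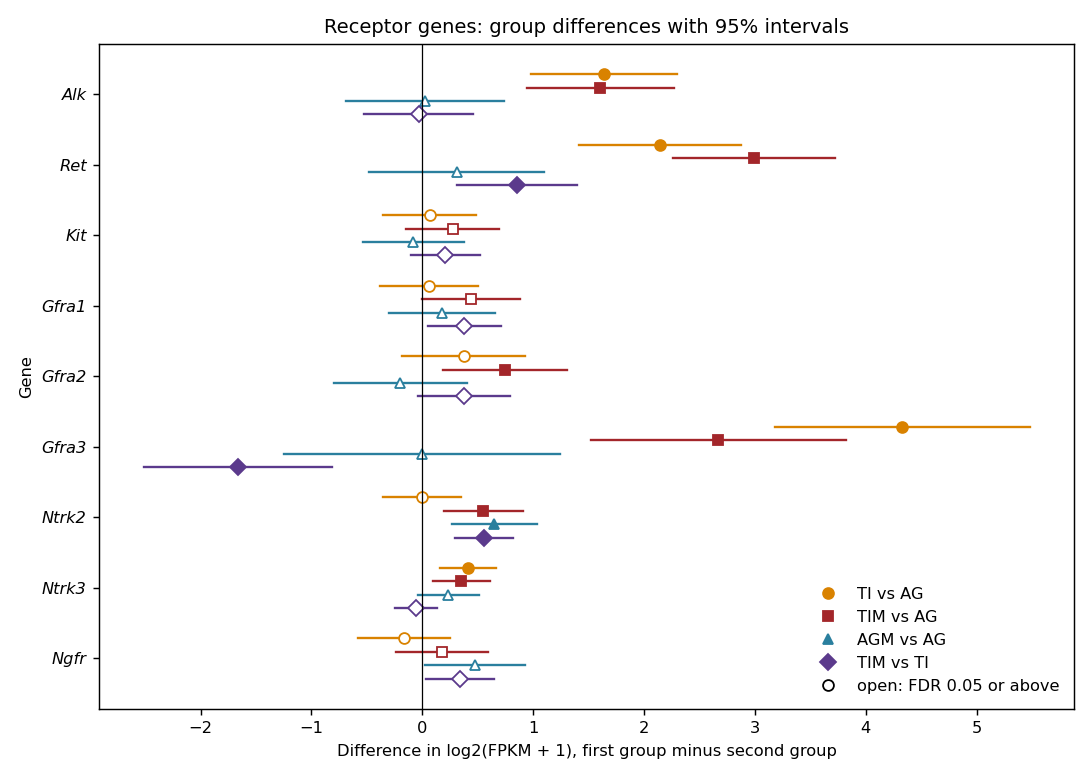
Difference in log2(FPKM + 1) between groups (horizontal axis) for the 9 receptor genes (vertical axis), with 95% intervals from limma as lines. Filled symbols have an FDR below 0.05 and open symbols do not. Gfra3 has the largest difference in TI vs AG at 4.33 and is the gene below 0 with a filled symbol in TIM vs TI, at -1.66.

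Alk (ENSMUSG00000055471, chromosome 17, 72174200 to 72911622, minus strand, GRCm39) was close to silent in glands. Its level in the 3 AG libraries was 0.00481, 0 and 0.00243 FPKM, or 4, 0 and 2 reads. In the 5 AGM libraries it was 0.0286, 0.00842, 0.0177, 0.0149 and 0.0169 FPKM, or 6 to 18 reads. All AGM libraries lay above all AG libraries, but both groups were at the lower end of what these libraries can count, and 3 reads in an AG library would correspond to about 0.00364 FPKM. In TI the level ranged from 0.905 to 7.03 FPKM with a median of 1.64, and in TIM from 0.363 to 2.70 FPKM with a median of 2.37. The tumors therefore held 251 to 6627 Alk reads each. Counting reads over the whole group per scaled library size, TI stood 1090-fold above AG (95% interval 501 to 2972, exact binomial) and TIM 905-fold (416 to 2467), which covers counting error of the 6 AG reads only. The log2 fold change of FPKM + 1 was 1.64 ± 0.32 (SE; limma FDR 0.000163) in TI vs AG, 1.61 ± 0.32 (SE; limma FDR 0.00021) in TIM vs AG and 1.58 ± 0.27 (SE; limma FDR 2.47e-05) in TIM vs AGM. TIM and TI had means of 2.17 ± 0.749 and 2.49 ± 2.02 FPKM (SD, n = 8 each). Their difference was -0.03 with a 95% interval from -0.52 to 0.46 (limma FDR 0.952). In TIM, 7 of the 8 libraries lay between 2.17 and 2.70 FPKM and TIM_8 at 0.363 FPKM.

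The 250 bases before the Alk start are shown because Alk had the fewest reads of the 9 genes in glands. They come from RefSeq on GRCm38.p6 (chr17:72604308-72604557, minus strand, printed 5' to 3'). E-boxes, the CANNTG motif that MYC family and many neural basic helix-loop-helix factors recognise, would be in capitals, and none occurs.

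Alk: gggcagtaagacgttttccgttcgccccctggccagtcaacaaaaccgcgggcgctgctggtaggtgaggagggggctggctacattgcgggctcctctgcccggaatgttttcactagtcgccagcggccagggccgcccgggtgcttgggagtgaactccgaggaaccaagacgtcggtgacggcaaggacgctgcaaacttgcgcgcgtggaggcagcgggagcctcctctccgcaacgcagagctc

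CANNTG reads the same on both strands and was present in 66.2% of 32851 such promoters, and its MYC-type form CACGTG in 6.02%. CACGTG occurred in none of the promoters of Alk, Gfra1, Kit, Ngfr and Ntrk2, the 5 genes that had an entry. Ret, Gfra2, Gfra3 and Ntrk3 are named only. The Alk window held 23 CG dinucleotides, against a median of 6 over all promoters, and 65.2% G or C, against 52.4%. The absence of a match says only that these letters are not in this window.

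Of the genes listed as ALK ligands, Alkal1 and Alkal2 stayed low in all groups, and only Mdk and Ptn moved apart. Alkal1 was listed at 0 in AG, AGM and TIM and at 0.00932 FPKM on average in TI, and Alkal2 stayed at or below a mean of 0.0924 FPKM in every group. Neither passed the filter. Mdk, which encodes the heparin-binding growth factor midkine, was at 1.48 ± 0.318 FPKM in AG (SD, n = 3) and rose in TI, where its mean was 18.7 ± 18.8 FPKM (SD, n = 8; log2 fold change 2.41, limma FDR 0.0108), and its value of 1.75 in TIM missed the threshold (limma FDR 0.0599). Ptn, encoding the related pleiotrophin, fell in TI (-1.84; limma FDR 1.6e-05) and TIM (-1.36; limma FDR 0.000509). Ltk, the kinase gene closest to Alk, stayed at a mean of 0.117 to 0.181 FPKM in all groups and below the filter.

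Ret (ENSMUSG00000030110, chromosome 6, 118128706 to 118174769, minus strand) was lowest in AG, higher in AGM and highest in tumors. AG libraries were at 0.0565, 0.0435 and 0.0613 FPKM, and AGM libraries at 0.279, 0.333, 0.381, 0.289 and 0.256 FPKM. The TI range was 2.49 to 6.56 FPKM with a median of 3.27, and TIM tumors from 1.87 to 14.04 FPKM with a median of 9.22. AG, AGM and the tumors did not overlap, whereas TI and TIM did: 5 of 8 TIM tumors lay above and 1 below every TI tumor. The log2 fold change was 2.14 ± 0.35 (SE; limma FDR 2.27e-05) in TI vs AG and 2.996 ± 0.35 (SE; limma FDR 2.18e-07) in TIM vs AG. In AGM vs AG it was 0.31 ± 0.38 (SE; limma FDR 0.585), although the AGM mean was 5.72 times the AG mean. It passed when the spread came from AGM and AG alone (limma FDR 0.000126), with a pseudocount of 0.1 (limma FDR 0.0246) and in the exact permutation test (adjusted p 0.0223).

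Ret was higher in TIM than in TI by 0.85 ± 0.26 on the log2 scale (SE; limma FDR 0.0221; means 8.55 and 3.80 FPKM). This call was lost when the spread came from TIM and TI alone (limma FDR 0.0789), and without TIM_1 and TIM_5, which had the highest Schwann cell marker sums and Ret at 14.04 and 13.5 FPKM (0.58; limma FDR 0.117). TIM_6 had the lowest Ret level of all tumors, 1.87 FPKM.

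Gfra3 (ENSMUSG00000024366, chromosome 18, 34822951 to 34853440, minus strand), the artemin co-receptor gene, had the highest mean of the 9 genes in both tumor models, although in TIM the median of Ret was higher (9.22 against 8.66 FPKM) and Ret exceeded Gfra3 in TIM_4 and TIM_5. It was at 0.471, 0.490 and 0.642 FPKM in AG and at 0.636, 0.322, 0.686, 0.555 and 0.484 FPKM in AGM, and these groups overlapped. The TI range was 3.51 to 56.7 FPKM with a median of 39.004, and TIM tumors from 3.74 to 22.5 FPKM with a median of 8.66. TI_6 had the lowest value of the TI tumors, and the other 7 were at 19.8 FPKM or more. The log2 fold change was 4.33 ± 0.56 (SE; limma FDR 7.89e-07) in TI vs AG and 2.67 ± 0.56 (SE; limma FDR 0.000341) in TIM vs AG. In AGM vs AG it was -0.00117 with a 95% interval from -1.24 to 1.24. TIM fell below TI by 1.66 ± 0.41 on the log2 scale (SE; limma FDR 0.00653), with means of 10.2 ± 6.48 and 36.7 ± 17.7 FPKM (SD, n = 8 each). The call held when any 1 tumor was left out (limma FDR 5.58e-05 to 0.0157).

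For Gfra3, whether the step from gland to tumor had another size on the MYCN background was tested as the difference of TIM - AGM and TI - AG. It was -1.66 with a 95% interval from -3.17 to -0.15 and did not pass (limma p 0.0322, FDR 0.160), except without TI_6 (-2.06; limma FDR 0.00721) or with a spread set per group (limma FDR 0.0252). For this difference limma called 0 of the 9 genes, limma-voom called 0 as well, and Gfra3 was the gene with an unadjusted p below 0.05, while 10% of the 10171 and 7.31% of the 21833 genes were called. The number of IGF2BP1 alleles also differed between TIM and most TI tumors, and its part cannot be told apart from that of MYCN.

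Gfra2 (ENSMUSG00000022103, chromosome 14, 71127472 to 71217280, plus strand), the neurturin co-receptor gene, was the most abundant of the 9 genes in AG, at 1.02, 0.891 and 1.05 FPKM. AGM libraries lay below all of these, at 0.742, 0.742, 0.693, 0.839 and 0.655 FPKM. The AGM difference of -0.20 did not pass in limma (FDR 0.659), unless the spread came from AGM and AG alone (limma FDR 0.00689), and passed in the exact permutation test (adjusted p 0.0446). In TI it ranged from 0.6999 to 3.05 FPKM with a median of 1.79 and overlapped AG (0.37 ± 0.27, SE; limma FDR 0.261, or 0.0221 with a spread per group). TIM tumors ranged from 0.825 to 4.68 FPKM with a median of 2.56, and 7 of 8 lay above AG (0.75 ± 0.27, SE; limma FDR 0.0242). The exact permutation test did not pass for Gfra2 in TIM vs AG (adjusted p 0.0808). Leaving out any AG library ended the TIM vs AG call (limma FDR between 0.0599 and 0.0818). Against AGM, which shared a MYCN transgene with TIM, Gfra2 was higher by 0.94 ± 0.23 (SE; limma FDR 0.00102).

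Gfra1 (ENSMUSG00000025089, chromosome 19, 58223212 to 58444346, minus strand), the GDNF co-receptor gene, was low in glands and uneven in tumors. It was at 0.0783, 0.0659 and 0.0723 FPKM in AG and at 0.117, 0.0855, 0.114, 0.422 and 0.369 FPKM in AGM. In TI the range was 0.0214 to 0.482 FPKM with a median of 0.0880. In TIM it ran from 0 in TIM_4 and TIM_8 to 1.63 FPKM in TIM_5, with a median of 0.511. The TIM and TI means of 0.533 and 0.125 FPKM differed by 0.38 on the log2 scale with a limma FDR of 0.125 and an adjusted exact permutation p of 0.299. TIM vs AG gave 0.44 (limma FDR 0.129) and passed with a spread per group (limma FDR 0.0110).

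Within a library, Gfra3 exceeded Gfra1 in all 24 and Gfra2 exceeded Gfra1 in all 24. The Gfra3 to Gfra1 difference in log2(FPKM + 1) had a median of 0.48 in AG, 0.28 in AGM, 5.17 in TI and 2.97 in TIM. TI and TIM both differed from AG, TIM from AGM, and TIM from TI (adjusted exact permutation p 0.00991 for each of the 4). With a pseudocount of 0.1, TIM vs AG no longer passed (adjusted exact permutation p 0.0985). The Gfra2 to Gfra1 difference, with medians of 0.91, 0.60, 1.19 and 1.08 in AG, AGM, TI and TIM, did not pass in any contrast (adjusted exact permutation p 0.111 to 0.992).

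Among RET ligand genes, Gdnf, Nrtn and Gdf15 were highest in AGM. Nrtn and Gdf15 passed the filter on low values only through AGM, so their count as higher in AGM is no support for a pattern, and of the others Artn did not pass and Pspn fell. In TI vs AG, Gdnf, Nrtn and Gdf15 did not pass, Nrtn being nearest at -0.33 (limma FDR 0.0745). Gdnf was at 1 read per library in AG and at 0 to 1 in TI, but at 746 to 2201 reads in AGM, where the mean was 4.91 ± 1.78 FPKM (SD, n = 5). The AGM vs AG log2 fold change of Gdnf was 2.50 (limma FDR 1.67e-06). AG came from run 1 and AGM from run 2, and batch correction can move genes with few reads. For Gdnf, Nrtn and Gdf15, the parts of transgene, run and correction cannot be told apart. In TIM Gdnf ranged from 0 to 964 reads, with a mean of 0.948 ± 0.958 FPKM (SD, n = 8), and was higher than in AG (0.82; limma FDR 0.0214) and TI (0.82; limma FDR 0.00885). Nrtn, encoding neurturin, was at 0.276 FPKM in AG, 3.89 in AGM (1.92; limma FDR 3.25e-09), 0.0167 in TI and 0.295 in TIM, and was higher in TIM than in TI (0.32; limma FDR 0.0429). Gdf15, whose product uses another RET co-receptor, rose in AGM only among the contrasts with AG (0.82; limma FDR 0.000942). Below the filter, Artn stayed at or below a mean of 0.0410 FPKM in all groups. Pspn fell in the fit without a filter (TI -0.36, limma FDR 8.8e-05; TIM -0.50, limma FDR 1.78e-06; AGM -0.39, limma FDR 0.00024). Of the other co-receptor genes, Gfra4 rose in AGM (0.77; limma FDR 0.00418) and TIM (0.87; limma FDR 0.000263), and Gfral held a mean of at most 0.000939 FPKM. Ncam1, encoding an adhesion molecule that also binds GDNF, rose in TI (3.03; limma FDR 4.28e-10) and TIM (2.64; limma FDR 4.78e-09). It passed the filter only through tumors, so its rise is no support for a pattern.

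**Figure D3:**
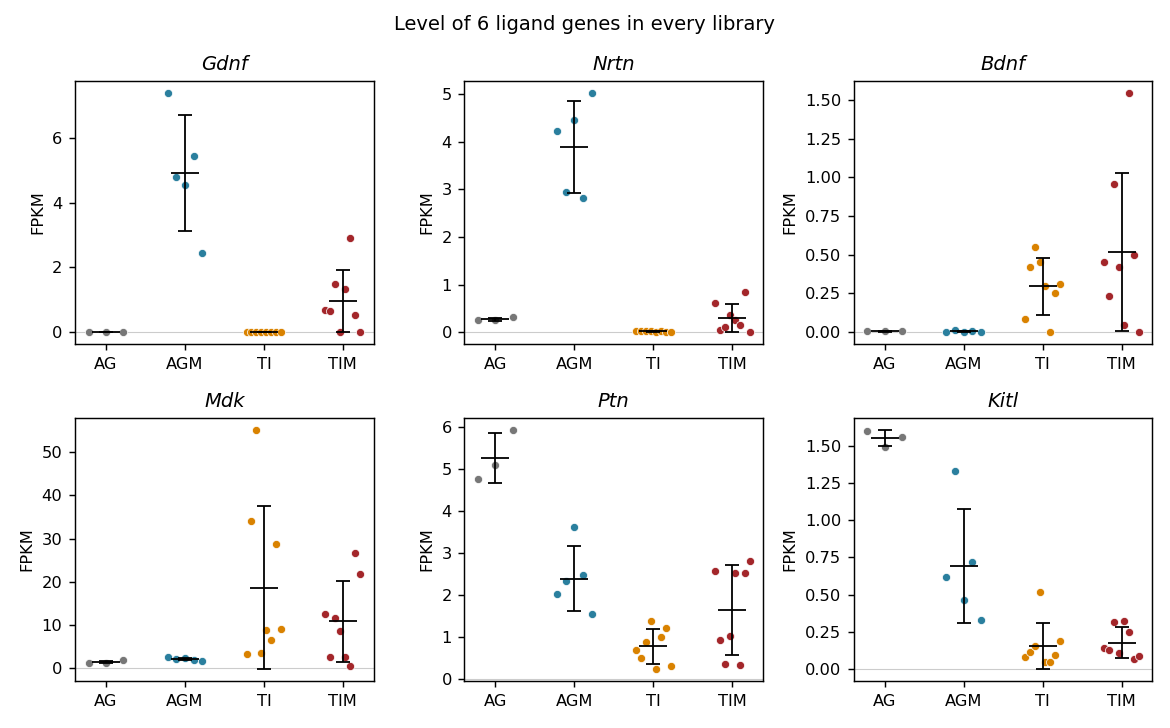
Level of 6 ligand genes in FPKM (vertical axes, linear, each panel with its own range) in every library of AG, AGM, TI and TIM (horizontal axes). Points are libraries, the horizontal bar is the group mean and the error bars are 1 SD. Gdnf and Nrtn are highest in AGM, with means of 4.91 and 3.89 FPKM, and Kitl and Ptn are highest in AG.

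Ntrk2 (ENSMUSG00000055254, chromosome 13, 58954176 to 59281784, plus strand), the TrkB gene, was higher in AGM and most TIM libraries than in AG and TI. This split mostly followed both the MYCN transgene and the sequencing run. Ntrk2 was at 0.0382, 0.0832 and 0.129 FPKM in AG and at 0.639, 0.868, 0.506, 0.558 and 0.979 FPKM in AGM, with no overlap. TI values ran from 0.0197 to 0.121 FPKM with a median of 0.0838, all within or below the AG range. TIM tumors ranged from 0.0751 to 1.51 FPKM with a median of 0.532, and 7 of 8 lay above every TI and AG library. TIM_8 was the exception at 0.0751 FPKM. In reads, glands held 79 to 265 (AG) and 783 to 1582 (AGM), and tumors 38 to 275 (TI) and 129 to 2648 (TIM).

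In limma without a filter, Ntrk2 was higher in AGM than in AG (0.65 ± 0.18, SE; limma FDR 0.0156), and the exact permutation p of 0.0179, the smallest that 56 assignments allow, was 0.0446 after adjustment. It was higher in TIM than in AG (0.55 ± 0.17, SE; limma FDR 0.0148; adjusted exact permutation p 0.0808) and in TIM than in TI (0.56 ± 0.13, SE; limma FDR 0.00632; adjusted exact permutation p 0.00466). TI vs AG gave -0.00517 with a 95% interval from -0.36 to 0.35, and TIM vs AGM -0.10 with an interval from -0.40 to 0.20. The calls against AG depended on its 3 libraries: leaving out AG_1 or AG_2 ended that of AGM (limma FDR 0.0664 and 0.0529) and that of TIM (0.0656 and 0.0508). The call of TIM vs TI held without any 1 tumor (limma FDR 0.00115 to 0.0147). AGM and TIM samples came from runs 2 and 3, and AG and 6 of 8 TI samples from run 1, so the MYCN transgene and the run mostly went together, and their parts cannot be told apart.

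The 250 bases before the Ntrk2 start are shown because Ntrk2 was higher in both groups with a MYCN transgene (RefSeq, GRCm38.p6, chr13:58806319-58806568, plus strand). The capitals mark its only CANNTG motif, which is not of the CACGTG form.

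Ntrk2: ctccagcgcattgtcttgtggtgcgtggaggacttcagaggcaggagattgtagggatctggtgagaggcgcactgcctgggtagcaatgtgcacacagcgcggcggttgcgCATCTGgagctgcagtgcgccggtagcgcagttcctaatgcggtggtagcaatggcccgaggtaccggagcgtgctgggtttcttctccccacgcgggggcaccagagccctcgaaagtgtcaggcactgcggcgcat

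Ntrk3 (ENSMUSG00000059146, chromosome 7, 77825707 to 78387760, minus strand), the TrkC gene, was lowest in AG, at 0.0139, 0.0570 and 0.0712 FPKM. AGM libraries were at 0.286, 0.314, 0.161, 0.156 and 0.250 FPKM. TI tumors ranged from 0.232 to 0.496 FPKM with a median of 0.433, and TIM tumors from 0.126 to 0.779 FPKM with a median of 0.206. All libraries of AGM, TI and TIM lay above all AG libraries. Ntrk3 was higher than in AG in TI (0.41 ± 0.12, SE; limma FDR 0.0115; adjusted exact permutation p 0.0303) and in TIM (0.35 ± 0.12, SE; limma FDR 0.0299; adjusted exact permutation p 0.0808), and the AGM difference of 0.23 did not pass (limma FDR 0.260), unless the spread came from AGM and AG alone (limma FDR 0.0106) or was set per group (limma FDR 0.00831), and in limma-voom (FDR 0.0338). The TIM call was lost without any 1 AG library or without TIM_7 (limma FDR 0.0504 to 0.110), and the TI call without AG_1 (limma FDR 0.0545). TIM and TI differed by -0.06 with a 95% interval from -0.25 to 0.13, but TIM tumors fell apart: TIM_3, TIM_6 and TIM_7 had 0.691, 0.779 and 0.582 FPKM and the other 5 at most 0.239.

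The balance of both kinases, in FPKM, differed between the tumor models. Ntrk2 exceeded Ntrk3 in 3 of 3 AG, 5 of 5 AGM, 0 of 8 TI and 5 of 8 TIM libraries. The difference of Ntrk2 and Ntrk3 in log2(FPKM + 1) lay between 0.03 and 0.08 in AG and between 0.35 and 0.66 in AGM, whereas TI tumors lay between -0.54 and -0.18 and TIM tumors between -0.40 and 1.15. It differed in TIM vs TI (0.61; exact permutation p 0.00373, adjusted 0.0152), TI vs AG (-0.42; adjusted exact permutation p 0.0152) and AGM vs AG (0.42; adjusted exact permutation p 0.0298), but not in TIM vs AG (adjusted exact permutation p 0.564). The 3 TIM tumors with Ntrk3 above Ntrk2 were TIM_3, TIM_7 and TIM_8. Which gene is higher also depends on the gene lengths used, 19292 bases for Ntrk2 and 30170 for Ntrk3. In reads, Ntrk3 was above Ntrk2 in AG_2 (181 against 169) and TIM_6 (2116 against 1754) as well, and the other libraries kept their order. As for Ntrk2 alone, the MYCN transgene and the run mostly went together, and their parts cannot be told apart.

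**Figure D4:**
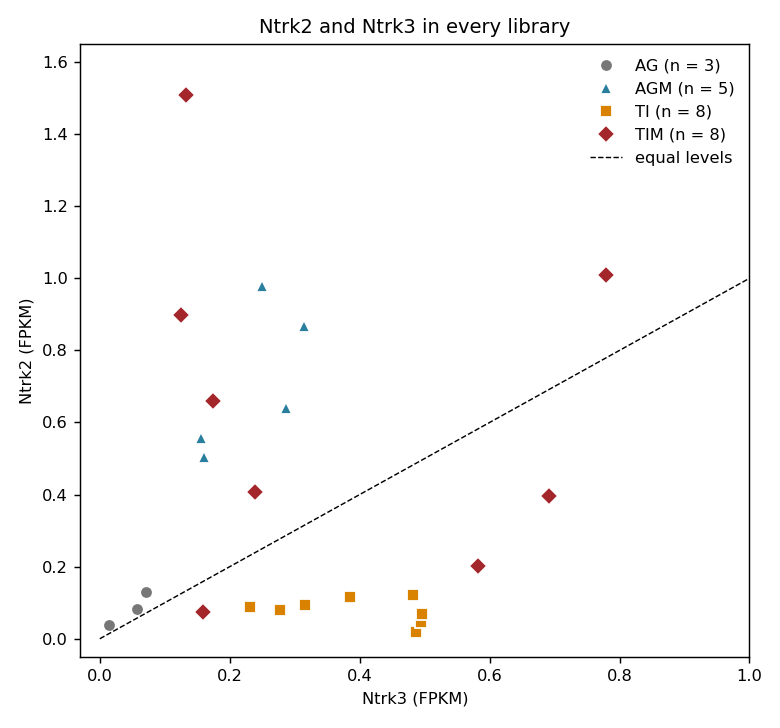
Ntrk2 level (vertical axis, FPKM) against Ntrk3 level (horizontal axis, FPKM) in each of the 24 libraries, with 1 symbol per library and a dashed line where both are equal. All 8 TI tumors lie below the line and all 8 glands of AG and AGM above it, while TIM tumors lie on either side, 5 above and 3 below.

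Ngfr (ENSMUSG00000000120, chromosome 11, 95459638 to 95478561, minus strand), the p75NTR gene, was highest in AGM on average. It was at 0.408, 0.270 and 0.372 FPKM in AG and at 0.927, 0.708, 0.802, 0.865 and 1.095 FPKM in AGM, with no overlap. Its TI values ran from 0.0239 to 0.941 FPKM with a median of 0.105, of which 6 of 8 lay below every AG library. TIM tumors ranged from 0.0902 to 1.22 FPKM with a median of 0.498, and 4 lay above and 4 below every AG library. The AGM vs AG difference of 0.48 ± 0.22 (SE) had a limma FDR of 0.106 and passed when the spread came from these groups alone (limma FDR 0.000674) or was set per group (limma FDR 0.000197). TIM vs TI gave 0.34 ± 0.15 (SE; limma FDR 0.102) and passed without TI_6 (0.44; limma FDR 0.0199) or without TIM_6 (0.41; limma FDR 0.0425). Relative to Ntrk3 in the same library, Ngfr was higher in all 8 glands, in 2 of 8 TI and in 6 of 8 TIM tumors, and this difference did not pass in any contrast (adjusted exact permutation p 0.146 to 0.588).

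Kit (ENSMUSG00000005672, chromosome 5, 75735576 to 75817404, plus strand) was at 0.226, 0.215 and 0.215 FPKM in AG and lower in each AGM library, at 0.166, 0.191, 0.0978, 0.154 and 0.154 FPKM. TI tumors ranged from 0.104 to 0.507 FPKM with a median of 0.250, and TIM tumors from 0.0466 to 1.42 FPKM with a median of 0.329. TIM_6, TIM_3 and TIM_7 were the highest, at 1.42, 1.27 and 0.827 FPKM. No contrast of Kit passed (limma FDR 0.105 to 1; adjusted exact permutation p 0.179 to 0.527). TIM vs AGM, at 0.35, passed without TIM_2 or TIM_8 (limma FDR 0.0478 and 0.0445) or with a spread per group (limma FDR 0.0450), and AGM vs AG, at -0.08, when the spread came from those groups alone (limma FDR 0.0398). Summed mast cell markers were 11.6 to 20.8 FPKM in AG, 1.89 to 4.65 in AGM and at most 0.190 in any tumor, where 4 to 9 of the 9 markers were at 0 reads. Kitl, encoding the KIT ligand, fell in both tumor models (TI -1.15, limma FDR 8.78e-08; TIM -1.12, limma FDR 1.44e-07) and by less in AGM (-0.62, limma FDR 0.00181). Only glands brought Kitl past the filter, so its fall in tumors is no support for a pattern.

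With 8 of the 9 genes not overlapping between AGM and AG (all but Gfra3), against 40.4% of the 21833 genes, limma called 1 gene in AGM, Ntrk2. In the exact permutation test, the adjusted p was also below 0.05 for Alk (0.0446), Ret and Gfra2. The smallest exact permutation p of 5 against 3 libraries is 0.0179.

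Neurotrophin genes were mostly low. Bdnf, the TrkB ligand gene, was at 0 to 8 reads in glands and at 0 to 865 in tumors, and rose in TIM in the fit without a filter (0.53; limma FDR 0.0411), while its TI difference of 0.35 did not pass (limma FDR 0.195). Ntf3, the TrkC ligand gene, rose in AGM in that fit (0.26; limma FDR 8.79e-05). Ntf5 was at 0 to 6 reads outside AGM and ranged from 0 to 57910 reads within AGM, and its difference from AG did not pass (limma FDR 0.131). For Ntf3 and Ntf5 as well, AGM and AG came from different runs of batch-corrected reads. Of further receptor genes, Lingo1 rose in TI (0.44; limma FDR 0.031) and TIM (0.83; limma FDR 0.000208), and Sort1 in TI (0.43; limma FDR 0.0397). Lingo1 passed the filter only through TIM. Sorcs2 was higher in TIM than in TI (0.72; limma FDR 0.0182), and Nradd and Ptprz1 did not pass in these contrasts.

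Of 27 tested adaptor and docking protein genes of 36 listed, 7 were higher and 4 lower in TI than in AG, and 8 were higher and 5 lower in TIM, or 40.7% and 48.1% called, against 52.4% and 51% of all tested genes, so the list lay below the share over all genes. Their median log2 fold changes were 0.01 and -0.11. The largest rises were those of Bex1 (4.05 and 4.30 in TI and TIM; limma FDR 7.13e-10 and 2.41e-10) and Bex3 (2.69 and 2.67), whose products bind p75NTR, and of Shc2 (2.37 and 2.03), an SHC adaptor of Trk receptors. By the mean of both contrasts, the largest falls were those of Ptpn11, the SHP2 phosphatase gene (-0.60 and -0.79; limma FDR 0.00324 and 0.000271), of Grb10, which passed in TI (-1.02; limma FDR 0.00163) and not in TIM (-0.34; limma FDR 0.271), and of Dok1 (-0.69 and -0.56). Shc2, Gab2 and Frs3 passed the filter only through tumors, Dok5 only through TIM and Dok1 only through glands. Their counts as higher or lower are therefore no support for a pattern.

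Of 12 tested feedback and target genes of the ERK pathway (15 listed), 1 was higher and 3 lower in TI, and 4 were higher and 3 lower in TIM, or 33.3% and 58.3% called, against 52.4% and 51% of all tested genes. Ccnd1, the cyclin D1 gene, rose in TI (1.97; limma FDR 0.00656), and Dusp4 (1.23; limma FDR 0.00251) and Spred3 (1.12; limma FDR 0.00042) rose in TIM. Spred1 (-1.57 and -1.62), Phlda1 (-1.37 and -1.09) and Dusp6 (-1.49 and -0.96) fell in both. In TIM vs TI, 5 of the 12 were higher and 1 lower, or 50% called, against 22.9% of all tested genes. Dusp4 (1.096; limma FDR 0.00238) and Dusp5 (0.96; limma FDR 0.00181), phosphatases of MAP kinases, and Etv5 (1.26; limma FDR 0.00936) were among the higher ones, and Ccnd1 (-1.26; limma FDR 0.0372) was the lower one. Dusp5 passed the filter only through TIM and Spred3 only through tumors, so their counts as higher are no support for a pattern.

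Most receptor tyrosine kinase genes that were called were lower in tumors. Of 28 tested of 58 listed, 5 were higher and 17 lower in TI, and 5 higher and 16 lower in TIM, against 27.7% and 28.5% of all 10171 genes that were lower. Alk and Ret are 2 of the 5 in either case, with Aatk (1.75 and 1.76) and Lmtk3 (2.17 and 2.01), kinase genes of neural tissue. Alk and Ret passed the filter only through tumors. Of the lower genes, Fgfr4, Tek, Pdgfra, Fgfr2 and Flt4 stayed below 1 FPKM in every tumor and passed the filter only through glands. The counts of higher and lower kinase genes are therefore no support for a pattern. The largest falls were those of Ephb4 (-2.02 and -2.03), Fgfr4 (-2.01 and -2.03) and Tek (-1.89 and -1.98), of which Tek and Ephb4 are kinase genes of vascular endothelium. Summed endothelial markers were 15.3 to 16.2 FPKM in AG and 13.3 to 16.3 in AGM, but 2.31 to 24.0 FPKM for TI and 1.299 to 8.61 FPKM for TIM. Their part in these falls was not tested.

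The order of the 9 genes by mean level changed from group to group. In AG it was Gfra2, Gfra3, Ngfr, Kit, Ntrk2, Gfra1, Ret, Ntrk3 and Alk, and only Ntrk2 with Gfra1 and Ret with Ntrk3 overlapped among neighbours. In AGM it was Ngfr, Gfra2, Ntrk2, Gfra3, Ret, Ntrk3, Gfra1, Kit and Alk, where all neighbours overlapped but Kit and Alk. In TI it was Gfra3, Ret, Alk, Gfra2, Ntrk3, Kit, Ngfr, Gfra1 and Ntrk2, and of these neighbours only Gfra2 and Ntrk3 did not overlap. Gfra3 was nevertheless above Ret in 8 of 8 TI tumors. In TIM it was Gfra3, Ret, Gfra2, Alk, Ntrk2, Ngfr, Kit, Gfra1 and Ntrk3, and all neighbours overlapped, with Gfra3 above Ret in 6 of 8. Gfra3 made up 29.5% to 91.8% of the summed FPKM of the 9 genes in TI and 13.9% to 77.5% in TIM, and Ret 4.16% to 26.6% and 12.4% to 50.5%.

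Single tumors differed in which receptors they carried. Deviations from the group mean of log2(FPKM + 1) were compared over the 16 tumors, as a description, since tumors of a model share genotype and the points share library and scaling. Ntrk3 and Kit deviated together (Pearson r = 0.858), with TIM_3, TIM_6 and TIM_7 high in both. Gfra1 went with Ngfr (r = 0.701) and Ntrk2 (r = 0.636), and opposite to Gfra3 (r = -0.518). TIM_5 had the highest Gfra1, Ntrk2 and Ngfr of the tumors, at 1.63, 1.51 and 1.22 FPKM, and TIM_1 had 0.805, 0.658 and 1.03 FPKM. These were also the tumors with the highest summed Schwann and sustentacular cell markers, 48.8 FPKM in TIM_5 and 27.4 in TIM_1, against at most 9.17 in the other TIM and 1.75 in the TI tumors. Of the 8 markers, 0 to 6 were at 0 reads in a TIM tumor and 0 to 4 in a TI tumor. Without TIM_1 and TIM_5, all 6 calls in TIM vs AG (limma FDR at most 0.0448) and those of Gfra3 and Ntrk2 in TIM vs TI held, and that of Ret in TIM vs TI did not.

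Gfra1 and Ngfr promoters are shown because these genes deviated together among tumors (RefSeq, GRCm38.p6, minus strand, 250 bases before the start, chr19:58455399-58455648 and chr11:95587699-95587948). Capitals mark CANNTG motifs, of which Gfra1 had 3 and Ngfr 2.

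Gfra1: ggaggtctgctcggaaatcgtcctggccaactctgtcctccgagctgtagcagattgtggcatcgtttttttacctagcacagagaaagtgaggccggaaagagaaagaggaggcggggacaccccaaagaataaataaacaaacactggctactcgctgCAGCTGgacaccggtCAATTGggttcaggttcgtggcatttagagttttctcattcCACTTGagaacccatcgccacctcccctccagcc

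Ngfr: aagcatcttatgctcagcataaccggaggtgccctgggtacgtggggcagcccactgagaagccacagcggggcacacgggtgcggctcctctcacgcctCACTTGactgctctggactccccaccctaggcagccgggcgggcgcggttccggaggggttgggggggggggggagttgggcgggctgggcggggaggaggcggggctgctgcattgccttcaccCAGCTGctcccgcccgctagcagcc

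**Figure D5:**
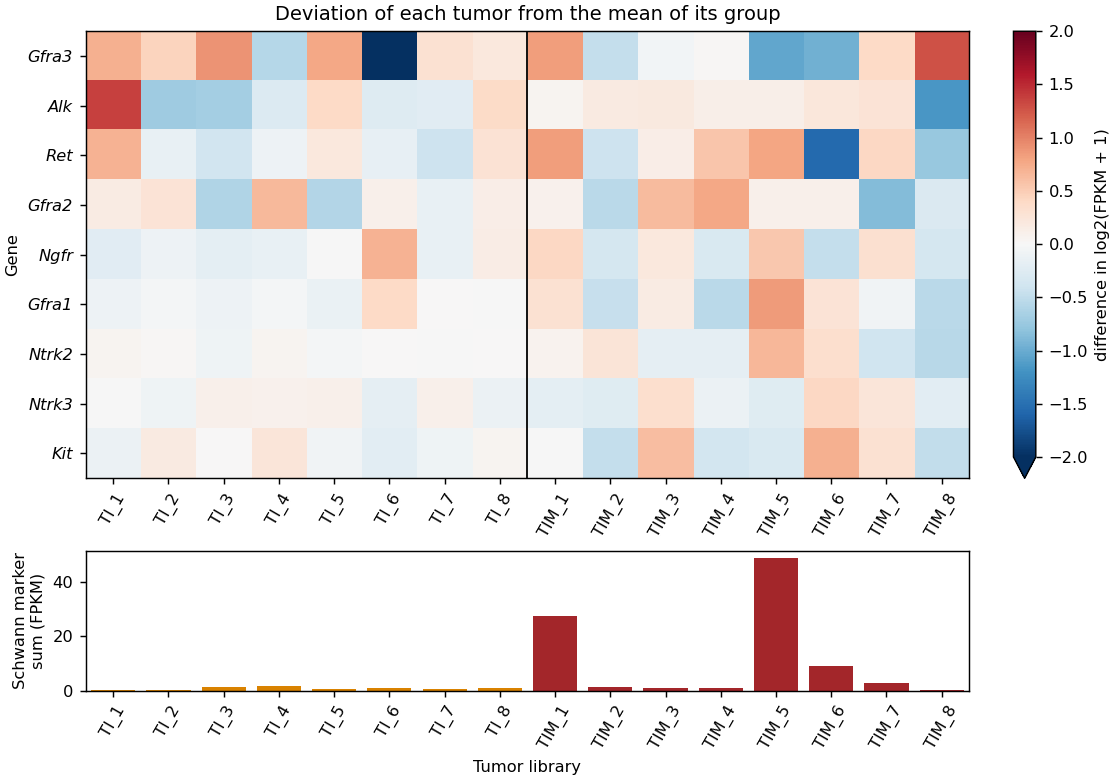
Upper panel: difference in log2(FPKM + 1) of each tumor (columns) from the mean of its group, for the 9 receptor genes (rows), with red above and blue below the mean and the scale ending at 2 in either direction. Lower panel: summed FPKM of 8 Schwann and sustentacular markers in the same tumors. Gfra3 in TI_6 is the largest deviation, and TIM_5 and TIM_1 hold the highest marker sums, 48.8 and 27.4 FPKM.

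The genes whose deviations over the 16 tumors were most like those of each tested member, among tested genes that never exceeded 1000 FPKM, were Lclat1 (r = 0.927) and Bicral (r = 0.914) for Alk, Pcdhgc4 (r = 0.849) and Plaat1 (r = 0.849) for Ret, Tmem255a (r = 0.792) and Arxes1 (r = 0.737) for Gfra2, Nfe2l3 (r = 0.915) and Lrrc61 (r = 0.857) for Gfra3, and Lpcat3 (r = 0.901) and Pi16 (r = 0.889) for Ngfr. Each pair is the top of a search over the tested genes and is given as a description.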

How the data were processed

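RNA-seq libraries of 24 mouse adrenal glands and tumors were used. Per the labels and methods, poly(A)-selected, strand-specific libraries were sequenced by the authors, trimmed with cutadapt 2.8, aligned to mm39 with HISAT2 2.1.0 and processed with SAMtools 1.10, featureCounts 2.0.0 and edgeR 3.40 (tools named in the submitters' processing notes). Counts were corrected for a batch effect with ComBat-seq, which can move genes with few reads in a batch. The deposited unit was FPKM of these corrected counts, for 21833 protein-coding genes, with gene length. The authors' fold changes, p-values and FDR in the same table were not used.

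Multiplied by gene length, 100% of FPKM values were whole multiples (within 0.01) of a step per library, which returned corrected reads. Columns were assigned to groups by name. Nothing in the labels states whether samples of a group were separate animals, so p-values measure the spread between these samples. No columns were identical. Fits used limma 3.58.1 (lmFit, eBayes with trend) in R 4.3.3 on log2(FPKM + 1), 4 groups sharing the spread, with genes of at least 1 FPKM in at least 3 libraries, Benjamini-Hochberg adjustment and an FDR threshold of 0.05, and were tested on simulated data. Exact two-sided permutation tests used every assignment of libraries, with adjustment over 5 contrasts (Python 3.11.15, scipy 1.17.1). Positions are from GENCODE M39 (GRCm39, the build of mm39), and promoters from RefSeq (GRCm38.p6). The 9 genes were named outright, and from each pathway list the 3 largest rises and falls among called genes, beside ligand and other receptor genes, of which some are not reported here. Sub-filter ligands, Dusp5, Etv5 and single tumors were named after their values were seen. Members and lists were chosen with earlier results of these data known. Alternatives were another pseudocount, no filter, 2 groups only, recomputed FPKM, left-out libraries and, chosen after seeing the data, limma-voom, a spread per group and leaving out TIM_1 and TIM_5. Read numbers and floors of 3 reads cover counting error only.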

Additional observations from a re-analysis of the deposited data

Results flagged for a closer look

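In 27 combinations of a gene and a group of 5 or 8 libraries, the highest or lowest library stood apart from the others by Dixon's criterion at 95% in 4, where about 1 in 20 is expected by chance. Alk was highest in TI_1, at 7.03 FPKM against 3.13 FPKM in the next TI tumor. Alk was lowest in TIM_8, at 0.363 FPKM against 2.17 FPKM in the next TIM tumor. TIM_8 was also the lowest TIM tumor in Ntrk2 (0.0751 FPKM) and Kit (0.0466 FPKM) and the highest in Gfra3 (22.5 FPKM).

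TI_6 stood apart from the other TI tumors in Gfra1, at 0.482 FPKM against 0.130 FPKM in the next, and in Ngfr, at 0.941 FPKM against 0.340 FPKM. TI_6 also had the lowest Gfra3 level of the TI tumors (3.51 FPKM), the lowest summed neuron markers (90.2 FPKM), the highest summed sympathoblast and chromaffin markers (1844 FPKM) and the highest summed adrenal cortex markers (7.496 FPKM). The labels place 1 TI tumor in the adrenal gland, but columns are not tied to labels, so whether TI_6 is that tumor was not tested.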

How the results depend on the processing

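Over the alternatives that did not leave out a single library, 305 of 323 values of single genes kept their side of the threshold, 13 passed newly and 5 no longer passed. Leaving out 1 library at a time kept 719 of 736. The sign changed in 8 of the 323 and 14 of the 736, none of them called in either fit. Among the widest, with limma-voom, Gfra1 in TIM vs AGM went from 0.26 to -0.88 and Ret in the difference of TIM - AGM and TI - AG from 0.54 to -1.50, the latter also turning with a pseudocount of 0.1 (-0.43). The number of the 9 genes called in AGM vs AG moved from 1 to 6 when the spread came from AGM and AG alone, to 3 with a spread per group, to 2 with limma-voom and to 2 with a pseudocount of 0.1. In TIM vs AG it moved from 6 to 3 when the spread came from TIM and AG alone, where Gfra2, Ntrk2 and Ntrk3 were lost (limma FDR 0.0709, 0.112 and 0.138). In the difference of TIM - AGM and TI - AG it moved from 0 to 1 with a spread per group. With single libraries left out, these counts ranged from 0 to 1 in AGM vs AG, 3 to 6 in TIM vs AG and 0 to 1 in the difference of differences. The cause was not tested. The Gfra3 to Gfra1 difference in TIM vs AG was 2.55 with a pseudocount of 0.1 and no longer passed, and the Ngfr to Ntrk3 difference in TIM vs AGM was -0.65 without TIM_1 and TIM_5 and passed. Without single libraries, the Ntrk2 to Ntrk3 difference ranged from -0.44 to -0.39 in TI vs AG and from 0.37 to 0.45 in AGM vs AG, and its calls were lost without any 1 AG library, since fewer assignments remain, and the Ngfr to Ntrk3 difference in TI vs AG ranged from -0.70 to -0.52 and passed without TI_6. Ngfr fell below the filter when AGM_5, TIM_1 or TIM_5 was left out and then had no value. No paired analysis was possible because the columns carry no replicate number of the labels. The quasi-likelihood test on counts was not run, since the table holds FPKM, and limma-voom took its place. Depth limits Alk, Gdnf and Ntf5 in AG, where single reads set the level.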
